A study of Homo sapiens with 8 samples.

Results

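The mono-nucleosome peaks of HA-tagged LSF were the 1983 regions that the authors called in HA ChIP over input DNA of mono-nucleosome size, out of 2412 regions listed for both DNA sizes in the series. Every row of this list was a member, and no measured value was used to choose it. The study mapped where LSF, encoded by TFCP2, sits on chromatin in HEK293T, an established line of human embryonic kidney cells. A stable HEK293T-derived line carried HA-tagged LSF under an inducible promoter, and the cells behind this list received 5 µM of the ligand RSL1 for 24 h. Chromatin was digested with micrococcal nuclease, precipitated with an HA antibody, and sorted into mono- and di-nucleosome sized DNA. The series had 8 libraries, 1 per condition, and this list rested on 2 of them, the HA ChIP and the input of induced cells. The 4 libraries from uninduced cells, labelled with DMSO as the inducer, carried the same tagged gene and were not analysed here. All positions are hg19 and count from 1.

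LSF is a transcription factor of the grainyhead family that binds DNA as an oligomer and is known from studies of liver cancer and of cell cycle control. Micrococcal nuclease cuts the linker DNA between nucleosomes, so each fragment of mono-nucleosome size covers about the DNA of a single nucleosome core. A peak joins overlapping fragments, and its width is the stretch that the caller reported as enriched. That width may also depend on the caller's settings, which are unknown here, and is not a count of nucleosomes. The tagged protein was expressed in addition to the cells' own LSF, and the antibody recognised the tag. With 1 library per condition no peak had a replicate, no test between conditions was possible, and the list did not tell induced from uninduced cells. The list gave no read totals, so the depth of both libraries was unknown.

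Most peaks were narrow. The median width was 557 bp, with a 95% order-statistic interval of 550 to 565 bp that treats peaks as independent, and the quartiles were 499 and 673 bp. The narrowest peak was 304 bp wide and the widest 5619 bp. Widths were expressed in units of 150 bp, about the DNA of a nucleosome core, and no peak was narrower than 2 units. The class from 3 to under 4 units held 1040 peaks, or 52.4% of the list. The 95% Wilson interval of this share was 50.2% to 54.6%, and such intervals cover counting error alone. The neighbouring classes held 207 peaks from 2 to under 3 units and 533 peaks from 4 to under 6 units. A further 146 peaks spanned 6 to under 10 units, and 57 peaks, called wide below, spanned at least 10 units or 1500 bp. The wide peaks made up 2.87% of the list (95% Wilson interval 2.23% to 3.71%) and 10.6% of the 1303 kb that all peaks covered. With a unit of 200 bp 31 peaks reached 10 units. The wide class began in a continuous tail, since the last peaks below its limit were 1491, 1461 and 1435 bp wide and the first above it 1520, 1528 and 1537 bp.

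Wider peaks more often had a near neighbour. A group was defined as 2 or more peaks with gaps of no more than 20 kb between their edges, and by this definition 273 peaks, or 13.8% (95% Wilson interval 12.3% to 15.4%), lay in groups. The other 1710 peaks are called lone. The grouped share was 3.38% from 2 to under 3 units, 7.88% from 3 to under 4, 17.3% from 4 to under 6 and 40.4% from 6 to under 10. Of the 57 wide peaks 33 lay in groups, or 57.9% (95% Wilson interval 45.0% to 69.8%). The share thus rose from each class to the next. The median distance to the nearer neighbour fell along the same classes, from 534 kb to 361, 255, 51.0 and 1.88 kb. Widths were also compared between grouped and lone peaks. Both sets reached over 5000 bp, so their ranges overlapped almost fully, but lone peaks outside the long arm of chromosome 19 reached only 2267 bp. Grouped peaks had a median width of 722 bp (interval 667 to 760 bp) and lone peaks of 546 bp (interval 542 to 552 bp). The difference of 176 bp moved with the definition, to 299 bp with gaps of up to 5 kb, 84 bp with gaps of up to 50 kb and 339.5 bp among peaks with at least the median score. Without chromosome 6 the grouped share of all peaks was 9.17% and that of wide peaks 44.2%.

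Most wide peaks belonged to 1 of 2 sets. The 33 grouped wide peaks lay in 9 cytogenetic bands of chromosomes 1, 5, 6, 11, 14, 16 and 17. Of the 24 lone wide peaks 18, or 75%, lay on the long arm of chromosome 19. The split by this arm was made after the values were seen and is given as a description without a test. The remaining 6 lone wide peaks lay 1 each in 1p36.13, 1q42.12, 1q42.2, 10q11.21, 14q11.2 and 17q25.1. The plot of widths by set shows that 33.7% of grouped peaks, 52.9% of lone peaks on 19q and 4.51% of lone peaks elsewhere reached 6 units.

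**Figure D1:**
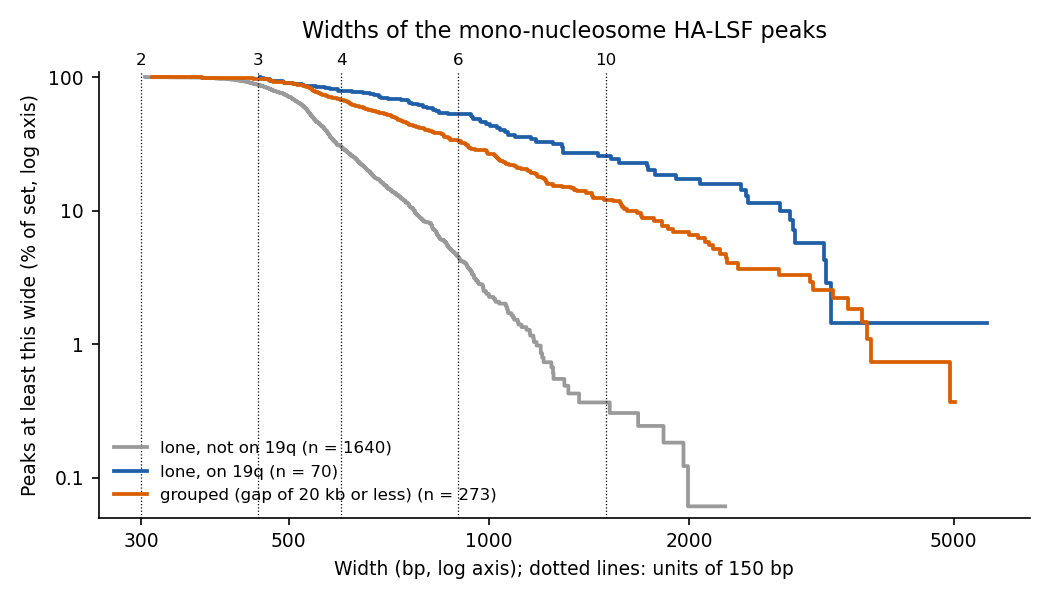
Share of peaks (%, log axis) at least as wide as the width on the x axis (bp, log axis) for 1640 lone peaks outside 19q, 70 lone peaks on 19q and 273 grouped peaks, with dotted lines at 2, 3, 4, 6 and 10 units of 150 bp. The line of lone peaks outside 19q falls fastest, and at 10 units the lines stand at 0.366%, 25.7% and 12.1%.

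The score that the caller assigned to each peak separated these sets. Grouped wide peaks scored between 109 and 967 with a median of 313. The 18 wide peaks on 19q scored between 50.9 and 106 with a median of 61.9, close to the median of 55.9 over all peaks, although they were as wide. Their median widths were 2113 and 2446 bp, with intervals of 1821 to 2369 bp and 1780 to 2884 bp that overlapped. All 33 grouped wide peaks scored above 100, and of the wide peaks on 19q 1 did. The 6 others scored from 54.7 to 414 with a median of 80.8, and only the peaks in 17q25.1 with 414 and in 14q11.2 with 212 came into the range of the grouped wide peaks.

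Grouped wide peaks also overlapped peaks of the other size of DNA more often than the list as a whole. Of the 33 grouped wide peaks 28, or 84.8% (95% Wilson interval 69.1% to 93.3%), overlapped a peak of the di-nucleosome list by at least 1 bp. Of the 18 wide peaks on 19q 0 did, which allows a share of up to 16.7%. Over the whole list 104 of 1983 peaks, or 5.24%, overlapped, and among lone peaks 9 of 1710, or 0.526%. The 0 of 18 on 19q cannot be told apart from the share of lone peaks. Among the 6 others 2 overlapped, again those in 17q25.1 and 14q11.2. Over the width classes the overlap rose from 0 of 207 peaks to 13 of 1040, 27 of 533, 34 of 146 and 30 of 57. The di-nucleosome list came from separate libraries of the same kind of preparation and is no replicate of this list.

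**Figure D2:**
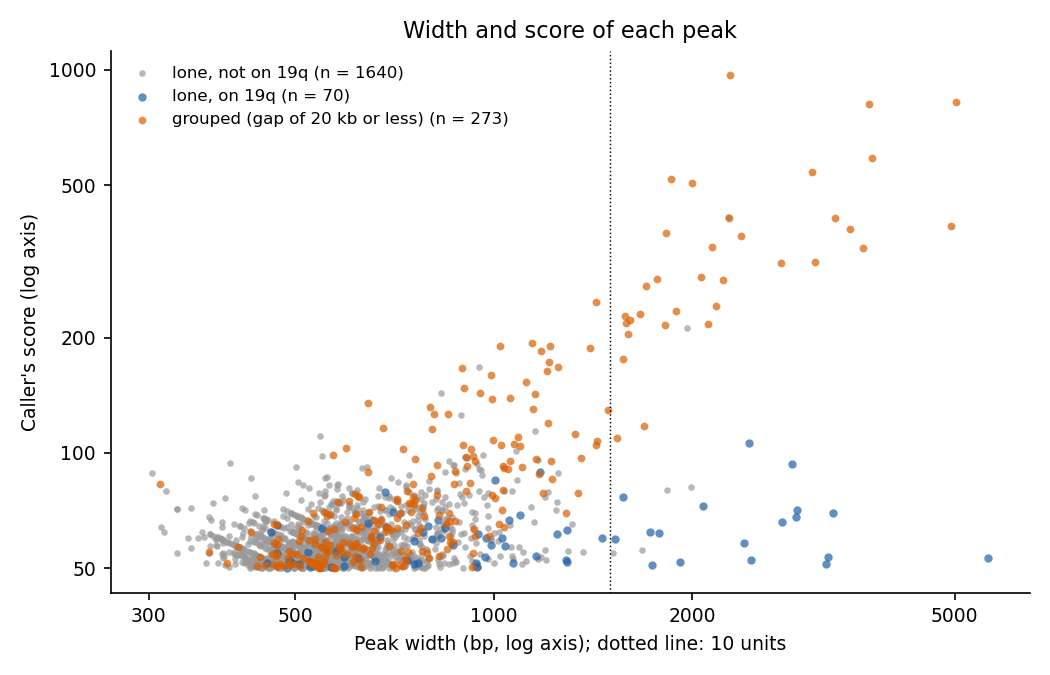
Width (bp, log axis) and caller's score (log axis) of each of the 1983 peaks, in the same 3 sets, with a dotted line at 10 units. Grouped peaks climb to a score of 967 as they widen, whereas lone peaks on 19q stay between 50.0 and 106 out to a width of 5619 bp.

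Over all peaks the rank correlation of width with score was 0.37 (n = 1983 peaks, which share 2 libraries and their depth). It was 0.80 among the 273 grouped peaks and 0.25 among the 1710 lone peaks. The larger width of grouped peaks was small at equal low scores and larger at high ones. From a score of 50 to under 52 the median width was 542 bp for 44 grouped peaks and 533 bp for 413 lone peaks outside 19q. From 60 to under 70 it was 684 bp against 571 bp, and from 70 to under 100 it was 821 bp against 690 bp. Lone peaks on 19q were wider than both in each of these classes, with 767 bp for 15 peaks, 946 bp for 21 peaks and 1374 bp for 8 peaks. At scores of at least 100 there were 71 grouped peaks with a median of 1431 bp and 9 lone peaks with a median of 1081 bp.

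The 10 widest peaks held 7 grouped and 3 lone ones. The widest of all lay in 19q13.31 from 44769746 to 44775364, was 5619 bp or 37.5 units wide, and scored 53.2. Its nearer neighbour was 158 kb away. The next lay in 5q35.3 from 180614173 to 180619197, was 5025 bp wide, scored 822 and belonged to a group of 10 peaks. These peaks, alike in width, stood near opposite ends of the range of scores. Chromosome 6 gave 3 of the 10, all in 6p22.2. They ran from 26327513 to 26332442 (4930 bp, score 392), from 26310888 to 26314638 (3751 bp, score 589) and from 26552848 to 26556140 (3293 bp, score 411). The first of them lay at the edge of its group and had a lower score than the second, a narrower member of the same group.

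The short arm of chromosome 17 gave 2 of the 10 widest. The peak from 8124112 to 8127814 was 3703 bp wide with a score of 812, and the peak from 8021827 to 8025460 was 3634 bp wide with a score of 342. The first lay in a group of 9 peaks, and the second opened a separate group of 6. In 16p13.3 the peak from 3236992 to 3240458 was 3467 bp wide with a score of 385. The last 2 lay on 19q, from 35380389 to 35383656 (3268 bp, score 69.7) and from 40834471 to 40837685 (3215 bp, score 53.5). The 5 widest lone peaks were all on 19q, these 3 and the peaks from 35019610 to 35022804 (3195 bp, score 51.3) and from 36013460 to 36016343 (2884 bp, score 70.8).

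Groups of different size differed in their share of wide peaks. The 273 grouped peaks formed 67 groups, of which 43 were pairs. Pairs held 0 wide peaks among 86, and their median width of 586 bp (interval 554 to 617 bp) was slightly above the 546 bp of lone peaks. The median rose to 739.5 bp in groups of 3 to 4 peaks, 751 bp in groups of 5 to 9 and 970 bp in groups of 10 or more. In these 3 size classes 13.6%, 18.0% and 18.3% of peaks were wide. Wide peaks occurred in 16 groups, 9 of which held at least 2. Of the 17 groups with 5 or more peaks 15 held a wide peak. Pairs also overlapped 0 di-nucleosome peaks among 86 peaks, against 9 of 1710 among lone peaks and 59 of 104 in groups of 10 or more. The median score was 56.1 in pairs and 55.1 among lone peaks.

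Width and score went together within groups. In 10 of the 17 groups with at least 5 peaks the widest member also had the highest score of its group. The rank correlation of width with score within these groups ran from 0.47 to 0.95, with a median of 0.87 over 17 groups. Peaks covered between 15.3% and 45.2% of the span of such a group, with a median of 19.3%, so most of the DNA in a group lay between peaks.

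The 5 groups with the most peaks lay on chromosomes 6, 16 and 1. The short arm of chromosome 6 is known for its clusters of histone genes and of tRNA genes. No gene annotation of hg19 was used, so no peak was placed against a gene. The largest group, in 6p22.1 from 28677600 to 28784838, held 21 peaks over 107 kb. Its widths ran from 490 to 2729 bp with a median of 803 bp, and its single wide peak, from 28756133 to 28758861, was the 13th of the 21 and had the highest score, 313. The second group, in 16p13.3 from 3198628 to 3242015, held 15 peaks over 43.4 kb with widths from 543 to 3467 bp and a median of 1103 bp. It had 5 wide peaks, and its coverage of 45.2% of the span was the highest among groups of at least 5 peaks.

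The third group, in 6p22.2 from 26521284 to 26613517, also held 15 peaks, spread over 92.2 kb, with widths from 525 to 3293 bp and a median of 778 bp. Its 2 wide peaks lay within the first 40 kb. The widest, 3293 bp, scored 411, less than the 541 of a peak of 3038 bp in the same group. The group in 1q23.3 from 161362169 to 161408332 differed from these: its 12 peaks were similar to each other, with widths from 619 to 1537 bp and a median of 1124 bp. Its widest peak, from 161401923 to 161403459, scored 109, whereas the highest score in the group was 164. The fifth group, in 6p22.1 from 27446127 to 27522137, held 11 peaks with widths from 557 to 1821 bp and a median of 990 bp. Its 3 wide peaks were the last 3 of the group, and the widest of them ran from 27511845 to 27513665 with a score of 215.

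**Figure D3:**
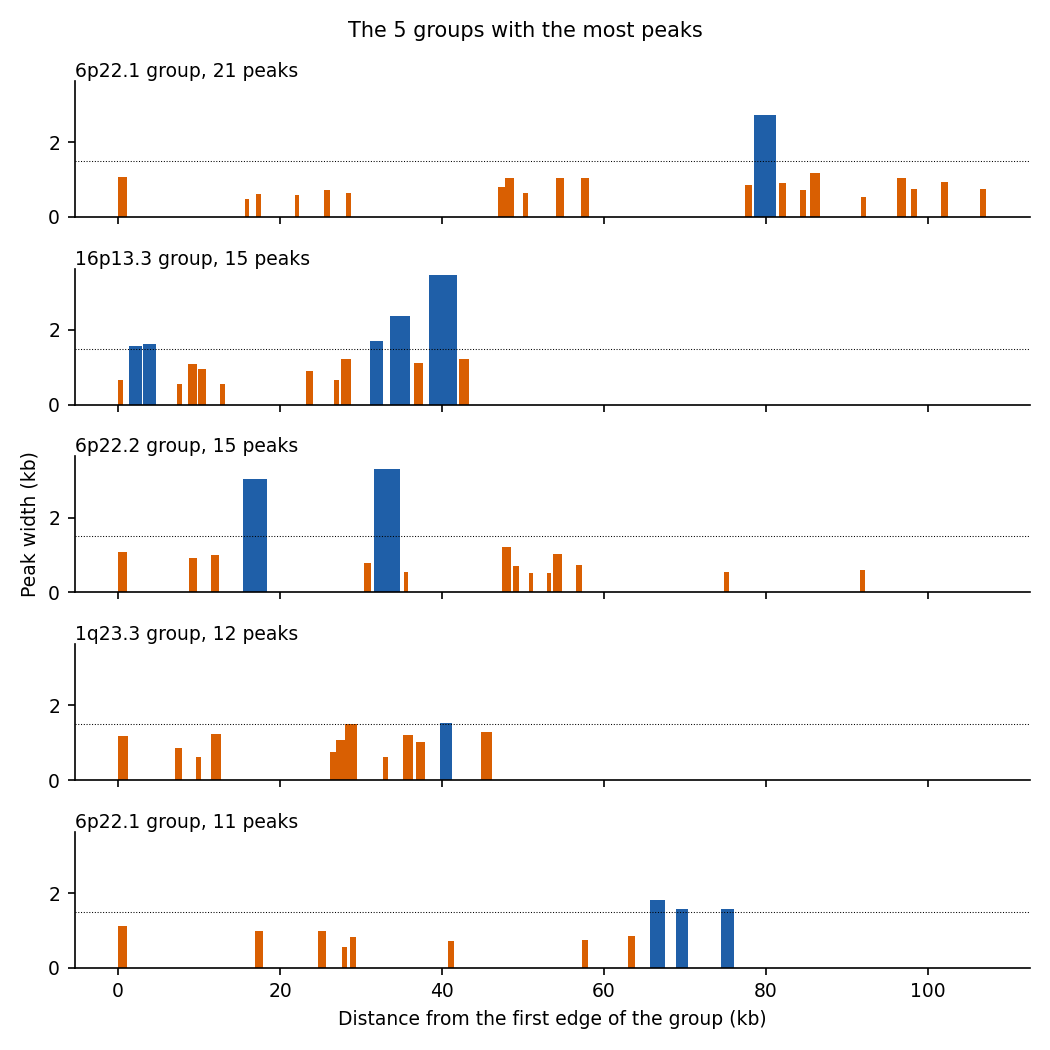
Layout of the 5 groups with the most peaks, each bar a peak placed by its distance from the first edge of the group (kb) and as high as its width (kb), wide peaks in blue and the dotted line at 1.5 kb. The group in 16p13.3 has 5 wide peaks, spread over both ends, and the group of 21 peaks in 6p22.1 has 1.

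Chromosome 1 had its widest peak in a short group of its own. In 1q21.1 from 145394425 to 145400271, 3 wide peaks of 1998, 1859 and 1770 bp followed each other with gaps of 37 and 183 bp, and scored 506, 520 and 285. Together they covered 96.2% of 5847 bp. This was the only group of 3 or 4 peaks with a wide member, and its nearest other peak was 1450113 bp away.

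Most peaks were far from the next, and a small part of the list was tightly spaced. The median gap from a peak to the next on the same chromosome was 599 kb over 1960 gaps (order-statistic interval 543 to 641 kb), and the quartiles were 170 and 1515 kb. Gaps of 20 kb or less numbered 206, and 60 gaps, or 3.06%, were shorter than 1 kb. Of these 60, 17 were shorter than 1 unit of 150 bp and 12 ran from 150 to under 300 bp. Gaps over 1 Mb numbered 707.

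The wider peak of a neighbouring pair had a larger median width at gaps under 5 kb than at longer gaps. The wider of 2 peaks tends to exceed the width of single peaks, so it is compared between gaps alone. Most gaps under 1 kb had no wide peak beside them. Of the 60 gaps under 1 kb 24 had a wide peak on at least 1 side. The wider peak of a neighbouring pair had a median width of 1074 bp at gaps under 150 bp, 1134 bp from 150 to under 300 bp and 1251 bp from 300 to under 600 bp. It was still 1034 bp from 1 to under 5 kb, then 779 bp from 5 to under 20 kb, 623 bp from 20 to under 100 kb and 586 bp at gaps over 1 Mb. The 5 smallest gaps were 2, 11, 14, 14 and 26 bp. They lay in 6p22.1 between peaks of 429 and 614 bp, in 12q24.31 between 545 and 595 bp, in 1q23.3 between 755 and 1074 bp, in 5q35.3 between 582 and 1701 bp, and in 6p22.1 between 693 and 1037 bp. The left peaks of these pairs began at 28863754, 125406016, 161388323, 180643567 and 27640189. Only the pair in 5q35.3 included a wide peak, and all 5 gaps were shorter than 1 unit.

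When peaks less than 1 kb apart were merged, 106 peaks became 46 regions and the list shrank to 1923 regions, of which 75 were wide. The longest merged region lay in 16p13.3 from 3229706 to 3242015. It joined 5 peaks into 12.3 kb, 80.0% of which was inside peaks. The second, in 17p13.1 from 8124112 to 8130658, joined 2 peaks into 6547 bp. After merging, the widest peak of the deposited list, on 19q, was sixth by length, since it had no neighbour to be joined with. Chromosome 6 held 23 of the 46 merged regions.

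Width depended little on the distance to the end of the chromosome. The rank correlation with the distance to the nearer end was -0.04 over 1983 peaks and -0.02 over the 1710 lone peaks. The median width was 546 bp for 55 peaks within 1 Mb of an end, 572 bp for 191 peaks from 5 to under 10 Mb and 549 bp for 491 peaks beyond 50 Mb. Wide peaks occurred in 6 of these 7 distance classes, with 0 among 43 peaks from 1 to under 2 Mb.

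Bands that stain light with Giemsa, which are known to be richer in genes, held 1095 of the 1983 peaks, or 55.2% (95% Wilson interval 53.0% to 57.4%), and made up 42.4% of the length of the chromosomes without Y. Of the wide peaks 34 of 57 lay in light bands, or 59.6% (95% Wilson interval 46.7% to 71.4%), an interval that includes the share of all peaks. The median width was 563 bp in light bands and 540.5 bp in the darkest bands. The share of peaks that reached 6 units did not fall evenly with staining. It was 11.2% in light bands, 15.3% of 176 peaks in the palest stained bands and 40 of 308 peaks in the next, then 4.57% of 197 and 1.03% of the 194 peaks in the darkest bands. Wide peaks made up 3.11%, 6.25%, 3.25%, 1.02% and 0% of these classes. The 11 wide peaks of the palest stained bands included 4 in 19q13.2 and 6 in 19q13.12. The 10 of the next class included 9 in 6p22.1. The shares of both classes thus rested largely on these 3 bands. In the darkest bands 4 of 194 peaks were grouped, and in the palest stained bands 4 of 176. Over the list 273 of 1983 peaks were grouped.

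The widest peak of a chromosome exceeded 20 units on chromosomes 5, 6, 16, 17 and 19, lay between 10 and 20 units on chromosomes 1, 10, 11 and 14, and fell short of 10 units on the other 14 chromosomes. Chromosome 13 had the narrowest maximum, 611 bp among 10 peaks, followed by chromosome 20 with 653 bp among 20 peaks. The highest maximum without a wide peak was that of chromosome X, 1367 bp in Xq13.2 from 73765733 to 73767099 with a score of 55.1, followed by that of chromosome 4, 1317 bp in 4p11 from 49121958 to 49123274 with a score of 65.2. Both of these were lone peaks with low scores, and 1710 of the 1983 peaks of the list were lone. Median widths of chromosomes ran from 482 bp on chromosome 7 to 714 bp on chromosome 19. Chromosome 6 was the third from the top with 628 bp, after chromosome 15 with 647.5 bp, but its 145 lone peaks had a median of 577 bp and included 0 wide peaks.

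By whole arms, 19q had the widest lone peaks. Over arms with at least 10 peaks, the median width of lone peaks ran from 479 bp on 7q to 659 bp on 1q, and was 945.5 bp on 19q (70 lone peaks, interval 783 to 1069 bp). The short arm of the same chromosome had a median of 552.5 bp. Along the chromosome the width changed over long stretches. The 9 peaks within 5 Mb of the short-arm end had a median of 503 bp, and the 18 peaks from 15 to 20 Mb had a median of 533 bp. The median was 1050 bp for 10 peaks from 30 to 35 Mb, 1759 bp for 16 peaks from 35 to 40 Mb and 1461 bp for 13 peaks from 40 to 45 Mb. It then fell to 767, 662 and 561.5 bp in the last 3 windows of 5 Mb. The high widths were thus shared by many successive peaks of the arm.

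Between the first wide peak of 19q, from 34047769, and the end of the widest one at 44775364, 10.7 Mb held 31 peaks, of which 17 were wide and 0 grouped. Their median width was 1727 bp. The 18th wide peak of the arm lay farther on, from 50453001 to 50454571. The wide peaks of 19q had their nearer neighbour, a peak of any width, at a median distance of 122 kb, between 44.4 and 385 kb. All 70 lone peaks of 19q had a median of 166 kb, against 405 kb for lone peaks outside 19q. All 13 peaks from 40 to 45 Mb reached 6 units, and their scores had a median of 59.6. The long arm of chromosome 19 is known for clusters of zinc finger genes, and the relation of the peaks to any gene was not tested.

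Distal 1q held another stretch of broad lone peaks, chosen after its values were seen. From 1q42.12 to 1q43, 21 peaks had widths from 575 to 1677 bp with a median of 1000 bp, 13 of them reached 6 units and 2 were wide. Of these peaks 19 were lone, with a median of 1016 bp against 568 bp for the other 55 lone peaks of 1q. Their scores ran from 50.5 to 77.5, 0 lay on the uniform score level described below, and 0 overlapped a di-nucleosome peak. Over the whole list 1710 of 1983 peaks were lone and the median score was 55.9. Of those 1710 lone peaks 9 overlapped a di-nucleosome peak. Distal 1q, with a median score of 56.8, was close to these values in its lone peaks, scores and overlap. It differed in the uniform score level, on which 623 of the 1983 peaks of the list, or 31.4%, lay. In Xq26.3, 8 peaks had a median width of 922 bp and 4 reached 6 units.

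**Figure D4:**
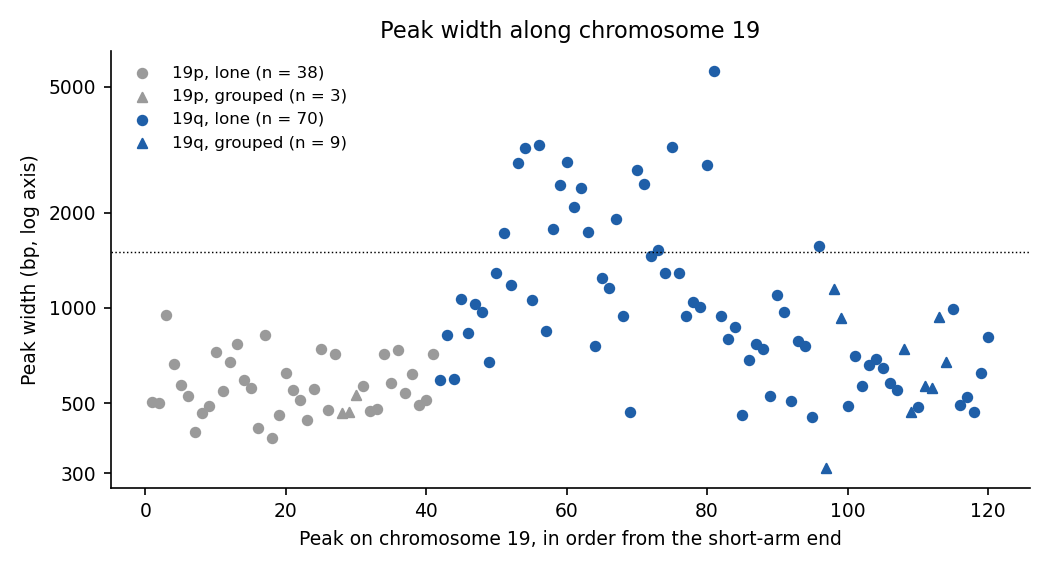
Width (bp, log axis) of the 120 peaks of chromosome 19 in their order from the short-arm end, short arm in grey and long arm in blue, triangles for grouped peaks and the dotted line at 10 units. Peaks of the short arm stay below 1000 bp, and 18 peaks of the long arm, 17 of them in a run of 31, lie above the line.

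The scores themselves held further information on the reads behind a peak. Of the 1983 peaks 411 shared both width and score with another peak. For a given number of reads in a peak and a given level of expected reads per bp, a Poisson model gives the probability of more reads, and 10 times its negative log10 can be set beside the score. With 1 uniform level of 6.01 reads per kb, a whole number of reads gave the score of 623 peaks within 0.005. This tolerance is the rounding of the list. They made up 31.4% of the list (95% Wilson interval 29.4% to 33.5%). The level was the one that matched most of these same scores, and the interval leaves that choice out. With widths 1 bp larger the best level matched 216 peaks. The next best level outside the neighbourhood of 6.01 reads per kb held 164 peaks. It was 6.43 reads per kb, and it and the following levels were whole multiples of 0.919 reads, from 7 to 15 multiples per kb. Those multiples held 516 further peaks, and the levels midway between them 78. The excess lay at the lower multiples, with 164 peaks at 7 against 28 midway above and 149 at 8 against 15. At 14 and 15 multiples it was 8 against 5 and 7 against 6, so part of the 516 cannot be told apart from matches at other levels. The multiples have the spacing that whole input reads counted in 1 kb would give if 1 input read stood for 0.919 ChIP reads. The caller's version and settings are not given in the sources used here, and the remaining 844 peaks were not placed.

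Peaks on the uniform level showed how few reads the narrow peaks held. Their read numbers ran from 12 to 187 with a median of 13, and 439 of the 623 held 12 to 14 reads. At 12 reads the narrowest was 372 bp with a score of 61.5 and the widest 476 bp with a score of 50.1. At 15 reads the widths ran from 435 bp with a score of 77.1 to 705 bp with a score of 50.1. At equal reads and an equal level a wider peak thus scored lower, which follows from how the score is built. The lowest score of the list, 50, set the largest width at each read number.

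If no peak was scored against a level below the uniform one, the number of reads at the uniform level is the least a peak can have held. This least number was 11 to 187 over all peaks with a median of 14. It had a median of 76 reads (36 to 187) for grouped wide peaks and of 37.5 reads (27 to 62) for wide peaks on 19q. The least number of each peak was also divided by the reads that the uniform level gives for its width. The median of this ratio was 5.47 times for grouped wide peaks and 2.50 times for wide peaks on 19q. The ranges were 3.84 to 10.8 times and 1.84 to 3.28 times, and the median over all peaks was 4.30 times. Of the 6 lone wide peaks elsewhere 4 came to 2.68 to 3.09 times, inside the range of 19q. These values are lower bounds, and a peak scored against a higher level held more reads than its bound. Reads, width and score are tied by the way the score is built, so the bounds restate the low scores of those peaks at their width and do not measure depth separately.

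The share of peaks on the uniform level also differed between places. On 19q 2 of 79 peaks, or 2.53% (95% Wilson interval 0.697% to 8.77%), lay on the uniform level, against 18 of 41, or 43.9% (29.9% to 59.0%), on 19p. Of the 18 wide peaks of 19q 0 lay on the uniform level and 0 on the multiples from 7 to 15. Of all 79 peaks of 19q 59 were placed on neither, against 844 of 1983 over the list. The level against which most peaks of 19q were scored is therefore unknown. Grouped peaks lay on the uniform level in 30.4% of cases and lone peaks outside 19q in 32.8%, and 10 of the 33 grouped wide peaks did. The share was thus low on 19q, and similar in groups and over all lone peaks outside 19q. The part of the local input level in the widths on 19q was not tested.

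Over the 36 arms with at least 10 peaks the share on the uniform level had a rank correlation of -0.58 with the number of peaks per Mb and of -0.58 with the median width of lone peaks. Without 19q these values were -0.54 and -0.55. The arms share the same 2 libraries and the same levels, and the values are descriptions. The highest shares were on arms with few peaks, with 10 of 10 peaks on 13q at 0.103 peaks per Mb and 77.8% of 18 peaks on 4q at 0.128 peaks per Mb. Their peaks had median widths of 528 and 519 bp. Other sparse arms had shares closer to the 31.4% of the whole list. These were 33.3% of 12 peaks on 7p, 25% of 12 on 21q and 30.8% of 13 on 20p. The short arm of chromosome 6 was denser than 19q, with 2.70 against 2.42 peaks per Mb, but 27.9% of its 165 peaks lay on the uniform level and its lone peaks had a median width of 577 bp.

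**Figure D5:**
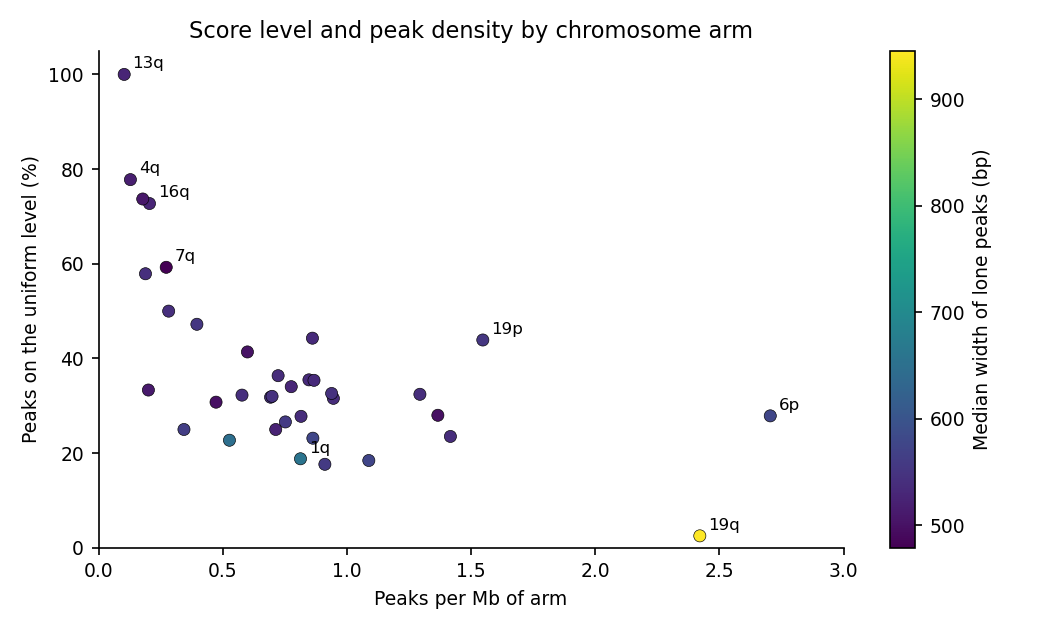
Share of peaks on the uniform level (%) against peaks per Mb for the 36 chromosome arms with at least 10 peaks, coloured by the median width of lone peaks (bp). The arm 13q stands at 100% and 0.103 peaks per Mb, and 19q at 2.53% and 2.42 peaks per Mb with the highest median width, 945.5 bp.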

How the data were processed

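The authors called peaks on 1 HA ChIP library over 1 input library of induced cells and deposited start, end and a score per peak. The peak names are those of MACS. Per the labels, the submitters' processing notes name CASAVA 1.4, BWA and hg19. The caller's version and settings, the scale of the score and the library depths are not given in the sources used here. Width was end minus start. Bands were those of hg19 in circlize 0.4.16, by peak midpoint. The Poisson levels were found by counting peaks within 0.005 of a score. This step was checked on scores simulated from the same model. Such a check covers the code and cannot tell whether the deposited scores follow the model. Grouping and merging were checked on a small made-up list. No gene of hg19 and no genome sequence was used. With 1 library per condition no test was run.

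The members, width classes and lists were chosen with earlier results of these data known. Named peaks were the 10 widest, the 5 widest lone peaks, the 5 groups with the most peaks with the widest of each, the 5 smallest gaps, and the widest peak of each chromosome where chromosomes were compared. The division by 19q, distal 1q, Xq26.3, the arms, the Poisson levels, the merged regions named, the lone wide peaks elsewhere and the peaks at the limit of 10 units were chosen after their values were seen. Python 3.11.15, numpy 2.4.6, pandas 2.3.3, scipy 1.17.1 and matplotlib 3.10.9 were used. Samples were grouped by their labels.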

Additional observations from a re-analysis of the deposited data

How the results depend on the processing

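No paired analysis was possible because only 1 library stood for each condition. Of 36 alternatives 7 were added after the data were seen. Among the 36, 19 kept the value within its interval or within 1.5 times the count, and 17 moved it. A reversal meant a change of sign, and 0 occurred. Only the width difference of grouped and lone peaks and the rank correlations could change sign. Counts, shares, median widths and gaps are always positive. With a unit of 200 bp 31 peaks reached 10 units. Among peaks with at least the median score the median width was 603 bp, 16.9% of peaks were grouped, grouped peaks were 339.5 bp wider than lone ones in place of 176 bp, and the median gap was 1084 kb. Without chromosome 6 the median width was 549 bp, 44.2% of wide peaks and 9.17% of all peaks were grouped, the median gap was 654 kb, and the rank correlation of width with score was 0.31. It was 0.25 among lone peaks. Without chromosome 19, 84.6% of wide peaks were grouped. With group gaps of up to 5 and 50 kb, 8.72% and 20.4% of peaks were grouped, and they were 299 and 84 bp wider than lone ones. With widths 1 bp larger, 216 peaks lay on their best uniform level in place of 623. The cause of these moves was not tested beyond the change of definition itself. The single libraries, the unknown depth and the lowest score of the list limit every count: a place without a peak may have had too few reads.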

Other observations

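The short arm of chromosome 20 held 13 peaks and its long arm 7, with median widths of 499 and 472 bp and 0 grouped peaks, and all 7 peaks of the long arm lay on the uniform level. Bands at centromeres held 7 peaks with widths from 516 to 1317 bp, and variable heterochromatic bands held 6 peaks whose median width was 768 bp. No peak of either kind of band was wide or grouped. On the long arm of chromosome X 103 peaks had a median width of 580 bp, 18.4% of them lay on the uniform level, and 1 overlapped a di-nucleosome peak. The long arm of chromosome 15 had 44 peaks, 0 of them wide, and their median width was 647.5 bp. The narrowest peaks of the list, from 304 to 319 bp, lay in 16p13.3, 19q13.33, 10p13, 6q27 and 10p14, with scores between 62.2 and 88.4, and 4 of these 5 were lone. The peaks of this paragraph were chosen after their values were seen.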
